A study of Mus musculus with 15 samples.

Results

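The genes described here are 10 transcription factors that are associated with immature and newly differentiated neurons, namely Sox4, Sox11, Sox12, Nfia, Nfib, Nfix, Bcl11a, Bcl11b, Tcf4 and Ebf3. They were found among the 38561 Ensembl gene identifiers of the deposited count tables by their GENCODE M21 symbols, and all 10 were present. Purkinje cells (PCs), the large inhibitory output neurons of the cerebellar cortex, had been laser-captured from the cerebellum of mice on the day of birth (P0) and on postnatal days 4, 8, 14 and 21, in 15 samples with 3 at each age. The labels give the strain as C56/BL6, the methods of the study give it as C57/BL6 and the mice as male, and no group carried an allele or received a treatment. From P4 to P21 single PC somata were collected, whereas at P0 the cells were taken as clusters of PCs, so that age and collection method cannot be told apart in any comparison with P0. The question was how the level of each factor ran over the first 3 postnatal weeks. Nothing in the labels says whether the 3 samples of a time point came from separate litters, and p-values measure the spread between these samples.

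Sox4, Sox11 and Sox12 form the SoxC group, HMG-box factors that turn on pan-neuronal genes once a progenitor has left the cell cycle. Nfia, Nfib and Nfix belong to the nuclear factor I (NFI) family, which binds DNA as dimers and acts both in glial differentiation and in the maturation of cerebellar granule neurons. Bcl11a and Bcl11b are zinc finger factors that associate with the BAF chromatin remodelling complex, Tcf4 is an E protein that pairs with tissue-specific basic helix-loop-helix factors, and Ebf3 is one of the early B-cell factors, a family used in neuronal differentiation and migration.

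Total counts on genes ranged from 3409371 to 7814951 per sample. Levels are given as CPM, counts per common library size after TMM scaling, and 14293 genes passed edgeR's filter on low counts. Under this scaling the median gene moved by 0.0063 log2 units from P0 to P21, against -0.30 with plain library totals, so that a gene at a constant CPM kept its place relative to the median gene. The labelled cell type was checked against its markers, and all 6 PC markers tested rose with age, among them the calcium buffer Calb1 and the calcium release channel Itpr1, and their summed level ran from 4549 to 6007 CPM at P0 and from 36886 to 46640 CPM at P21. Markers of other cells were present too. Those of dividing cells (5 of 5 fell) summed to between 403 and 434 CPM at P0 and to between 0.334 and 2.54 CPM at P21. Those of Bergmann glia and astrocytes had their highest sum at P8. In such pooled captures, fewer cells of a type and less RNA per cell cannot be told apart.

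Of the 10 factors, 9 passed the filter, Sox11 being the exception. In edgeR's quasi-likelihood test of postnatal day, 5 of these 9 fell with age at an adjusted p below 0.05 (Sox4, Sox12, Nfib, Tcf4 and Ebf3), where 14.1% of all genes tested fell. None rose, where 12.1% of all genes rose, and none had a positive slope, so that none passed in that direction at an unadjusted p below 0.05 either. DESeq2 and limma-voom also gave 5 falling and 0 rising factors, where 2442 and 1807 of all genes fell and 1993 and 2238 rose. The median slope of the 9 factors was -0.068 log2 units per day, beside -0.0077 for all genes tested. With library totals instead of TMM the same count of 5 factors fell, while the share of all significant genes that fell rather than rose went from 53.9% to 70.0%. With log2(day + 1) as the scale of time only 3 factors passed, since Nfib (adjusted p = 0.26) and Tcf4 (adjusted p = 0.083) were lost.

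**Figure D1:**
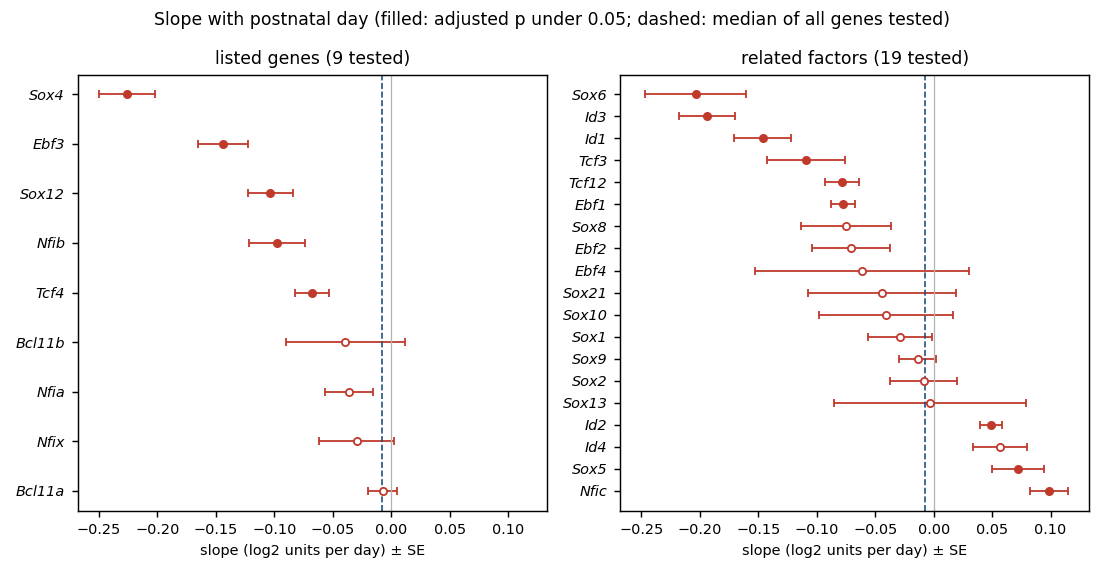
Slope of each gene with postnatal day in log2 units per day (x axis), with its standard error, for the 9 factors tested (left) and 19 related transcription factors (right). Filled points passed an adjusted p of 0.05 and the dashed line is the median of all genes tested. Sox4 has the steepest slope of the 9 at -0.23, Bcl11a lies nearest to 0 at -0.0071, and Nfic is the steepest rising related gene at 0.098.

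A test that lets every time point take its own level was passed by 6 of the 9 factors (Sox4, Sox12, Nfia, Nfib, Tcf4 and Ebf3), where 19.3% of all genes passed. Nfia passed this test but not that of the slope. DESeq2 passed all 9 factors, and 7 passed in edgeR with RLE size factors, with no filter on low counts, and without replicate 1 of P0, replicate 3 of P0 or replicate 3 of P4. In 3 factors, Sox4, Sox12 and Ebf3, every P14 and P21 sample lay below every P0 and P4 sample, which held for 7.14% of all genes tested. In no factor did every late sample lie above every early one, which held for 8.24% of all genes.

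**Figure D2:**
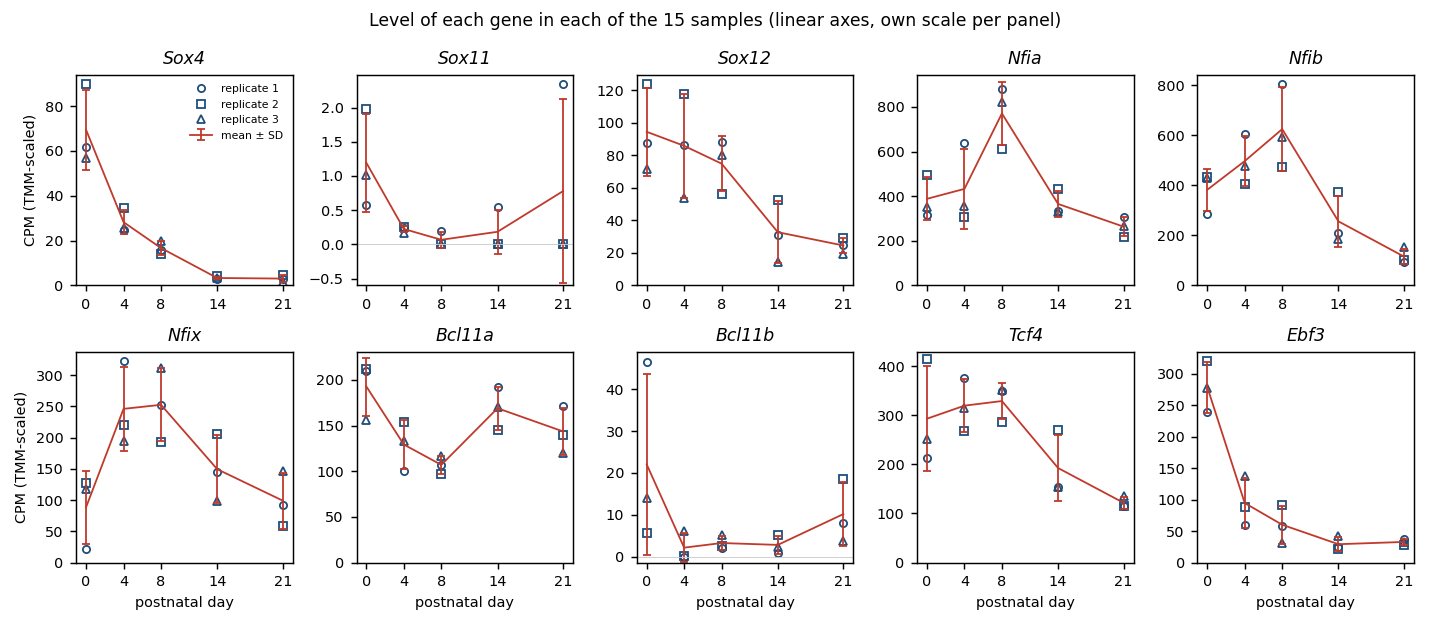
Level in CPM (y axis, linear, own scale in each panel) against postnatal day for the 10 factors. Open symbols are the 3 samples of each time point, and the red line joins their means with bars of 1 SD. Sox4 and Ebf3 drop from P0, Nfia, Nfib and Tcf4 have their highest mean at P8, Bcl11a has its lowest mean there, and Sox11 stays below 2.4 CPM throughout.

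Sox4 had the steepest decline of the 9 factors tested. It is a single-exon gene on the minus strand (GRCm38 chr13:28948919-28953713). Its level was 61.5, 89.7 and 56.96 CPM in the 3 P0 samples, 24.5, 34.4 and 25.7 CPM at P4, 15.9, 14.1 and 19.9 CPM at P8, 2.76, 4.02 and 3.07 CPM at P14 and 3.004, 4.45 and 1.60 CPM at P21. Samples of P0, P4, P8 and P14 did not overlap with those of the next age up to P14, whereas P14 and P21 overlapped. From P0 to P21 the mean fell from 69.4 ± 17.7 to 3.02 ± 1.42 CPM (SD, n = 3 each), a 23.0-fold difference. The slope was -0.23 ± 0.024 log2 units per day (SE, edgeR adjusted p = 1.47e-06), and 4.39% of all genes tested had a slope as negative or more so. Late levels rest on few reads, between 9 and 21 per sample at P14 and P21. An opposite-strand long non-coding gene, Gm26735, covers 54.6% of the Sox4 exon. Gm26735 had no count in any sample, and whether the counting used strand is not stated in the sources used here.

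Sox12 fell more slowly. This gene of the same group (GRCm38 chr2:152393611-152398063, minus strand) measured 87.5, 124 and 71.5 CPM at P0, 86.1, 118 and 53.5 CPM at P4 and 88.1, 55.9 and 80.3 CPM at P8. The values of these 3 time points overlapped. At P14 it measured 30.7, 52.7 and 14.6 CPM and at P21 25.0, 29.0 and 19.4 CPM, all of them below the lowest earlier sample. The mean was 3.85-fold higher at P0 (94.4 ± 26.9 CPM) than at P21 (24.5 ± 4.84 CPM), and the slope was -0.10 ± 0.019 log2 units per day (edgeR adjusted p = 0.00044).

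Sox11, which is essential for early neurogenesis, was barely present. It is also a single-exon gene (GRCm38 chr12:27334264-27342574, minus strand). There were 3, 10 and 5 reads at P0, 1, 2 and 1 at P4, 1, 0 and 0 at P8, 3, 0 and 0 at P14 and 7, 0 and 0 at P21, or 33 in all. A count of 0 allows up to 3 counts, which in the 6 samples at 0 is between 0.48 and 0.635 CPM, for counting error only. Among the late samples, 10 reads came from replicate 1 of P14 and of P21 and none from the other 4, so that no course can be given at this depth.

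The balance within the SoxC group shifted from Sox4 to Sox12. Scaled by exon length, Sox4 made up 40.6% ± 1.54 of the 3 genes' summed level at P0 and 9.73% ± 2.67 at P21, while Sox12 went from 59.0% ± 1.61 to 88.8% ± 3.57 (SD, n = 3). A ratio within a sample does not depend on the scaling between samples. As geometric means, Sox12 was 1.46 times the Sox4 level at P0 and 3.14 times at P4, then 4.78 times at P8, before 9.29 times at P14 and 9.02 times in the P21 samples. Over the 15 samples its log2 value rose with day (Pearson's r = 0.87, Spearman's rho = 0.92, permutation adjusted p = 0.0001 for both, over 10 ratios tested), and r was 0.92 when the 2 most distant samples in age were dropped. No trend is given for the ratio of Sox11 to Sox4. Sox11 had 0 reads in 6 of the 9 samples from P8 on, where the ratio is set by the 0.5 counts added and by Sox4, and its value in replicate 2 of P21 (0 Sox11 reads, 0.0134) was that of replicate 2 of P0 (10 reads, 0.0134).

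**Figure D3:**
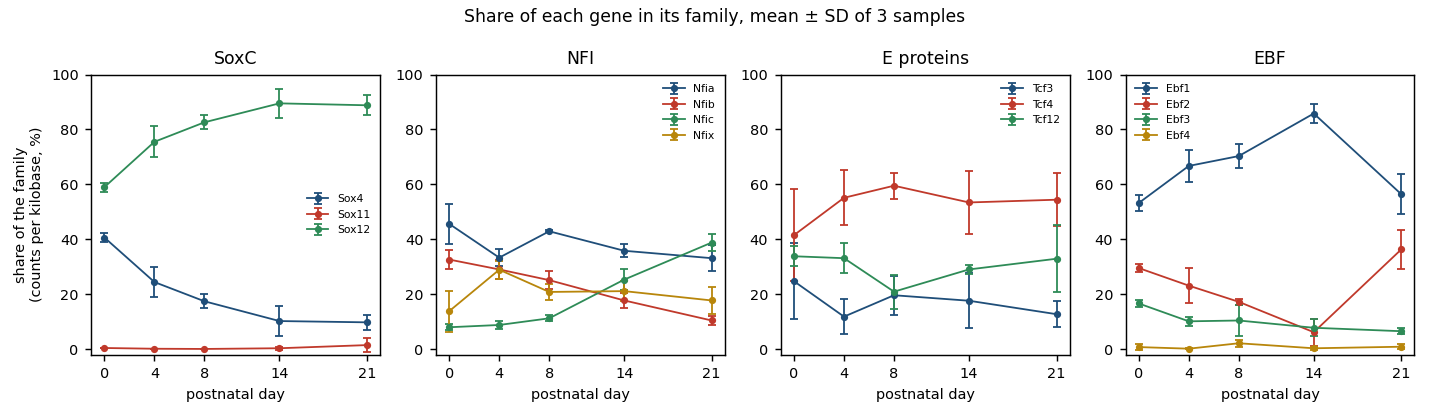
Share of each gene in the summed length-scaled level of its family in percent (y axis) against postnatal day, as the mean of 3 samples with bars of 1 SD, for the SoxC, NFI, E protein and EBF families. Sox12 climbs from 59.0% to 88.8% as Sox4 shrinks, and Nfic climbs from 7.94% to 38.8% as Nfib shrinks.

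Ebf3 had its steepest drop between P0 and P4. The gene lies on the minus strand (GRCm38 chr7:137193673-137314445). It measured 239, 320 and 278 CPM at P0 and 59.1, 87.7 and 137 CPM at P4, and the 2 groups did not overlap. Levels were then 58.3, 91.4 and 30.6 CPM at P8, 23.9, 21.3 and 42.2 CPM at P14 and 37.7, 28.4 and 32.2 CPM at P21, with overlap between each of these groups and the next. The mean at P0 (279 ± 40.6 CPM) was 2.95-fold that at P4 and 8.51-fold that at P21 (32.8 ± 4.70 CPM). The slope was -0.14 ± 0.022 log2 units per day (edgeR adjusted p = 5.52e-05). It remained at -0.091 (adjusted p = 0.013) without the P0 samples, whose cells were collected in another way.

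Ebf3 held a smaller share of its family than Ebf1 at every age. Scaled by exon length it held 16.6% ± 1.39 of the family's level at P0 and 6.50% ± 1.13 at P21, whereas Ebf1 held 53.2% ± 2.90 and 56.4% ± 7.20. Ebf2, which marks subsets of PCs, held 6.14% ± 4.98 at P14 but 36.3% ± 7.01 at P21. The ratio of Ebf1 to Ebf3 rose with day (r = 0.65, permutation adjusted p = 0.026, rho = 0.70, adjusted p = 0.014, r = 0.70 with the 2 most distant samples dropped). This rise was lost without the P0 samples (r = 0.34, adjusted p = 0.39) and narrowly without replicate 2 or replicate 3 of P0 (adjusted p = 0.053 and 0.055). No trend passed for the ratio of Ebf2 to Ebf3 (r = 0.25, permutation adjusted p = 0.54, rho = 0.38, adjusted p = 0.27).

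Since Sox4, Sox12 and Ebf3 were the factors whose late samples all lay below the early ones, the 250 bases before their RefSeq start sites (GRCm38.p6) are shown. They are the Sox4 window chr13:28953700-28953949, the Sox12 window chr2:152398047-152398296 and the Ebf3 window chr7:137314446-137314695, each written on the gene's minus strand. Capitals mark matches to the motifs searched on both strands: the NFI half-site TTGGCA, the Sox core ACAAAG, the EBF core CCCNNGGG, the E-box CACCTG that E proteins bind, the Bcl11a motif TGACCA and the TATA box TATAAA.
Sox4: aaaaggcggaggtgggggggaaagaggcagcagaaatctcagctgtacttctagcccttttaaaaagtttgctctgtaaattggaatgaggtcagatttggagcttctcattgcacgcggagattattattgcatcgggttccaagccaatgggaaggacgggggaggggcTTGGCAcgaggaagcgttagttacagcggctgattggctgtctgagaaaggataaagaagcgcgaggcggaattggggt
Sox12: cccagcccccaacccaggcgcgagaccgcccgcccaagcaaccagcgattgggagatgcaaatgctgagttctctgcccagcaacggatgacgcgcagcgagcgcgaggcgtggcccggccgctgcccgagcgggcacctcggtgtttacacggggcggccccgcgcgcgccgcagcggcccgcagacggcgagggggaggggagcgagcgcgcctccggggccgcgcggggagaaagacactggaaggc
Ebf3: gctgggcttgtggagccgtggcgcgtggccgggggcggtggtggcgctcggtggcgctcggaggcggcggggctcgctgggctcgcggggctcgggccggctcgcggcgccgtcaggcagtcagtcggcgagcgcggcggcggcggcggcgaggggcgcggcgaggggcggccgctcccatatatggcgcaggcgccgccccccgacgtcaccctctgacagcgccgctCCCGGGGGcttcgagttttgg
The Sox4 window held 1 NFI half-site, at -79 to -74 from the start site, a motif found in 12.3% of all 32536 windows of this length. The Ebf3 window held 1 EBF core, at -21 to -14, found in 11.9% of all windows, and the Sox12 window held none of the 6 motifs. The other motifs occurred in 16.5% (ACAAAG), 17.3% (CACCTG), 11.4% (TGACCA) and 12.3% (TATAAA) of all windows. None of the matches overlapped another. The windows also differed in base composition, with 50.8% G and C for Sox4, 74.4% for Sox12 and 80.0% for Ebf3, beside a median of 52.4% over all windows. A match is a description of the letters and was not tested as a binding site. Of the 10 factors, 8 had a window in the table, and Nfib and Tcf4 were without one.

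The NFI genes Nfia, Nfib and Nfix all had their highest mean at P8. Nfia (GRCm38 chr4:97772734-98118874, plus strand) measured 315, 496 and 352 CPM at P0, 637, 305 and 355 CPM at P4 and 879, 613 and 821 CPM at P8. It then measured 332, 434 and 329 CPM at P14 and 305, 218 and 266 CPM at P21. The P8 samples lay above all others except replicate 1 of P4, which was higher than replicate 2 of P8. The mean at P8 was 1.99-fold that at P0 and 2.93-fold that at P21. Nfia differed between time points (edgeR adjusted p = 0.0037) but had no slope that passed (-0.036 ± 0.021 log2 units per day, adjusted p = 0.22). Without the P0 samples its slope was -0.068 and passed (adjusted p = 0.045).

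Nfib (GRCm38 chr4:82290173-82705750, minus strand) fell with age from a level that was highest at P8. It measured 285, 432 and 431 CPM at P0, 607, 407 and 478 CPM at P4 and 807, 475 and 593 CPM at P8, values that overlapped between P4 and P8. At P14 it measured 211, 372 and 186 CPM and at P21 93.8, 100.2 and 151 CPM. Every P21 sample was below every other sample, and the mean at P8 (625 ± 169 CPM) was 5.43-fold that at P21 (115 ± 31.6 CPM). The slope was -0.098 ± 0.024 log2 units per day (edgeR adjusted p = 0.0048).

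Nfix (GRCm38 chr8:84699876-84800344, minus strand) was already high at P4. Its level was 20.96, 127 and 118 CPM at P0, 322, 221 and 195 CPM at P4, 253, 194 and 311 CPM at P8, 144, 206 and 97.9 CPM at P14 and 92.5, 58.0 and 147 CPM at P21. All P0 samples lay below all P4 and P8 samples, and replicate 1 of P0 was the lowest of the 15 samples. Neither the slope (-0.030 ± 0.032, edgeR adjusted p = 0.55) nor the test between time points (adjusted p = 0.083) passed. The test between time points did pass in DESeq2 (adjusted p = 0.019), with no filter on low counts (0.030) and without replicate 1 of P0 (0.029). Without the P0 samples the slope was -0.083 and passed (adjusted p = 0.0061), which brought the factors that fell to 7. In that fit 1526 of all genes fell, against 2021 with all samples.

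Within the NFI family the fourth gene, Nfic, gained on the other three. Nfic rose with day at 0.098 ± 0.016 log2 units per day (edgeR adjusted p = 0.00018), from 43.1 CPM at P0 to 188 CPM at P21. Scaled by exon length, its share of the family went from 7.94% ± 1.08 to 38.8% ± 3.24, and that of Nfib from 32.6% ± 3.36 to 10.4% ± 1.74. Nfia held 45.6% ± 7.35 at P0 and 33.1% ± 4.78 at P21, and Nfix 13.8% ± 7.49 and 17.7% ± 5.01. The ratio of Nfic to Nfia rose from 0.175 at P0 to 1.18 at P21 (r = 0.96, rho = 0.94, permutation adjusted p = 0.0001 for both, r = 0.95 with the 2 most distant samples dropped). The ratio of Nfib to Nfia fell from 0.719 to 0.315 (r = -0.83, permutation adjusted p = 0.0001, rho = -0.82, adjusted p = 0.0011, r = -0.74 with the 2 most distant samples dropped). No trend passed for Nfix to Nfia (r = 0.22, permutation adjusted p = 0.54, rho = 0.11, adjusted p = 0.79).

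Tcf4 (GRCm38 chr18:69343356-69689079, plus strand) also fell with age, and its lower levels began at P14. It measured 213, 414 and 251 CPM at P0, 375, 269 and 314 CPM at P4 and 349, 287 and 352 CPM at P8, and these groups overlapped. At P14 it measured 154, 270 and 154 CPM and at P21 114, 115 and 135 CPM, with every P21 sample below every other sample. The mean at P8 (329 ± 36.7 CPM) was 2.71-fold that at P21 (122 ± 11.7 CPM). The slope was -0.068 ± 0.014 log2 units per day (edgeR adjusted p = 0.0016). The E proteins it can pair with fell as well, Tcf3 at -0.11 (adjusted p = 0.021) and Tcf12 at -0.078 (adjusted p = 0.00052). No trend passed for the ratio of Tcf12 to Tcf4 (r = -0.20, permutation adjusted p = 0.54, rho = -0.29, adjusted p = 0.42) or of Tcf3 to Tcf4 (r = -0.23, permutation adjusted p = 0.54, rho = -0.19, adjusted p = 0.64).

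Bcl11a, also known as Ctip1 (GRCm38 chr11:24078056-24174123, plus strand), had the slope nearest to 0. It measured 210, 212 and 156 CPM at P0, 101, 154 and 133 CPM at P4, 107, 96.9 and 117 CPM at P8, 192, 145 and 170 CPM at P14 and 171, 140 and 119 CPM at P21. The P8 samples were below all P0, P14 and P21 samples and overlapped with P4. Highest and lowest time point means differed 1.80-fold. Neither the slope (-0.0071 ± 0.012 log2 units per day, edgeR adjusted p = 0.73) nor the test between time points (adjusted p = 0.066) passed. DESeq2 did pass the latter (adjusted p = 0.0041), as did edgeR with RLE size factors (0.046) and without replicate 3 of P0 (0.036).

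Bcl11b, or Ctip2 (GRCm38 chr12:107910403-108003602, minus strand), was low and uneven. It measured 46.5, 5.56 and 13.98 CPM at P0, 0, 0.259 and 6.17 CPM at P4, 2.02, 2.48 and 5.24 CPM at P8, 0.920, 5.17 and 2.30 CPM at P14 and 8.01, 18.6 and 3.84 CPM at P21. Replicate 1 of P0 supplied 242 of its 609 reads, and replicate 1 of P4 had none, which allows up to 0.736 CPM. The slope was -0.039 ± 0.051 log2 units per day (edgeR adjusted p = 0.63) and was positive without replicate 1 of P0 (0.026, adjusted p = 0.77). The test between time points gave an adjusted p of 0.21 in edgeR, 0.047 in DESeq2 and 0.022 in edgeR without replicate 3 of P4. The change from P0 to P4 was -3.34 ± 1.39 log2 units (adjusted p = 0.27) and, without replicate 3 of P4, -7.01 (adjusted p = 0.039), a fitted value that then rests on P4 samples with 0 and 2 reads. No trend passed for the ratio of Bcl11b to Bcl11a (r = 0.095, permutation adjusted p = 0.74, rho = 0, adjusted p = 1).

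When neighbouring time points were compared, the changes that passed were all between P8 and P14, the interval in which climbing fibre and parallel fibre synapses mature. Sox4 changed by -2.33 ± 0.48 log2 units (SE, edgeR adjusted p = 0.014), Nfib by -1.29 ± 0.29 (adjusted p = 0.026) and Nfia by -1.08 ± 0.27 (adjusted p = 0.039). These are 3 of 9 factors, where 1.38% of all genes fell over this step, and 0 of 9 rose, where 1.29% of all genes did. The changes of Sox12 (-1.19 ± 0.42, adjusted p = 0.18), Ebf3 (-1.04 ± 0.39, adjusted p = 0.21), Tcf4 (-0.77 ± 0.26, adjusted p = 0.16) and Nfix (-0.76 ± 0.49, adjusted p = 0.59) were negative but did not pass, and that of Bcl11a was positive (0.66 ± 0.22, adjusted p = 0.15). Each of the 3 calls was lost in some repeats with 1 sample left out. That of Sox4 was lost without replicate 3 of P8 or replicate 1 or 3 of P14 (adjusted p = 0.052, 0.082 and 0.083), that of Nfib without replicate 1 or 3 of P8 or replicate 1 or 3 of P14 (adjusted p between 0.065 and 0.15), and that of Nfia without any 1 of the P8 and P14 samples (adjusted p between 0.056 and 0.18) and narrowly without replicate 1 or 3 of P21 (0.0502 and 0.053). The direction stayed negative in every one of these repeats.

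**Figure D4:**
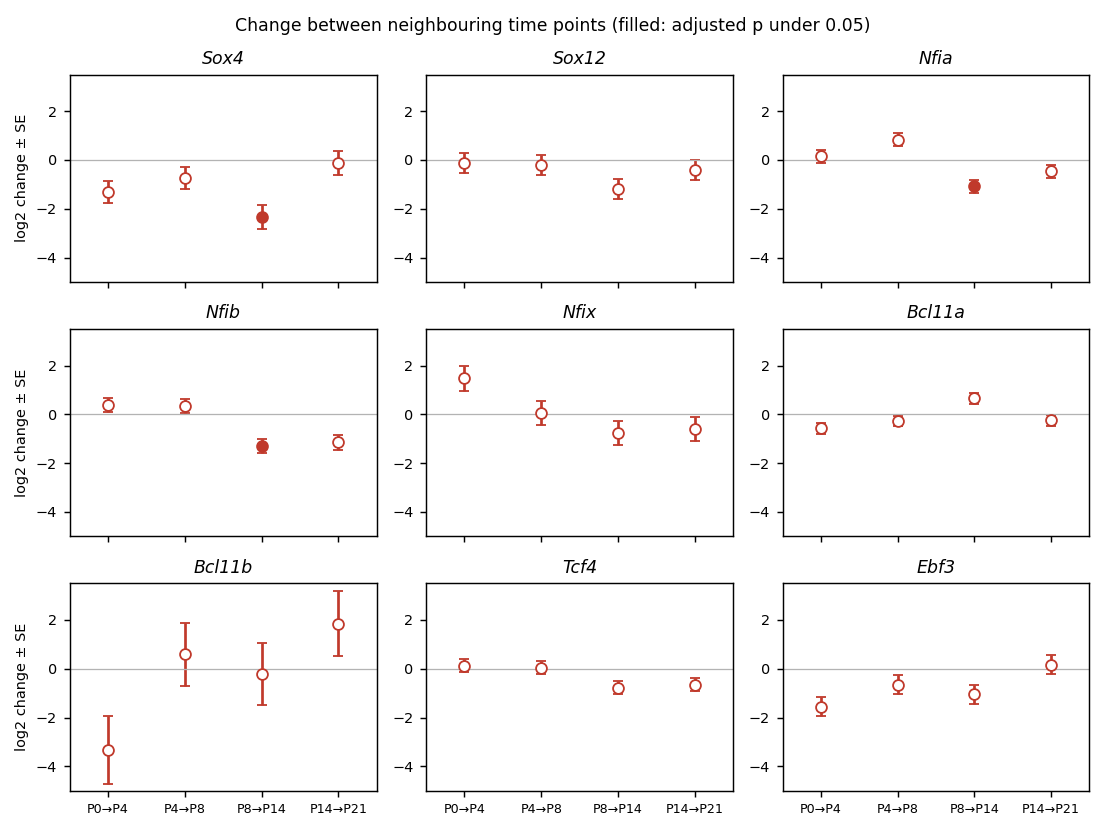
Change between neighbouring time points in log2 units (y axis, later minus earlier) with its standard error, for the 9 factors tested. Filled points passed an adjusted p of 0.05 in edgeR's test, and these are Sox4, Nfia and Nfib from P8 to P14. The widest bars belong to Bcl11b.

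None of the 9 factors passed in the other 3 steps. From P0 to P4, edgeR called 0 of 9 factors lower and 0 higher, where 0.231% and 1.74% of all genes were called, while 4 fell and 1 rose at an unadjusted p below 0.05 and DESeq2 called 2 lower. Ebf3 came closest (-1.56 ± 0.39 log2 units, adjusted p = 0.0503) and passed without replicate 3 of P4 (as did Bcl11b), replicate 2 of P8 or replicate 3 of P8 (adjusted p = 0.029, 0.039 and 0.030) and in DESeq2 (0.0022). Sox4 changed by -1.30 ± 0.45 over that step (adjusted p = 0.18) and passed in DESeq2 (0.016). From P4 to P8, where 0.252% of all genes fell and 0.882% rose, edgeR and DESeq2 called 0 factors, and 1 (Nfia, 0.83 ± 0.26, edgeR adjusted p = 0.19, and 0.037 without replicate 1 of P4) had an unadjusted p below 0.05. From P14 to P21, where 0.266% of all genes fell and 0.063% rose, edgeR called 0 factors. Over that last step 2 factors fell at an unadjusted p below 0.05, Nfib (-1.15 ± 0.29, adjusted p = 0.16) and Tcf4 (-0.66 ± 0.27, adjusted p = 0.59), and DESeq2 called Nfib (adjusted p = 0.021).

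Summed markers of glia and of granule neurons had their highest mean at P8, as did Nfia, Nfib, Nfix and Tcf4. For Nfix and Tcf4 the means at P4 and P8 were close (246 and 252 CPM, and 319 and 329 CPM). No factor passed in the step from P4 to P8. The summed level of the 9 Bergmann glia and astrocyte markers, of which 4 rose and 2 fell with day, ran from 4029 to 5649 CPM at P0, 5363 to 9242 CPM at P4, 8441 to 10051 CPM at P8, 6461 to 6923 CPM at P14 and 3457 to 4983 CPM at P21. Like Nfia and Nfib this sum was highest at P8, where Fabp7 averaged 4662 CPM, beside 1107 CPM at P14. Among the 9 markers, Fabp7, Aqp4, Gfap and Aldh1l1 had their highest mean at P8. For Slc1a3, Gdf10 and Hopx it was at P14, and for Slc1a2 and S100b at P21. The 7 markers of granule neurons and their progenitors, of which 6 could be tested, 2 rose (Gabra6 and Etv1) and 1 fell (Pax6), summed to between 418 and 620 CPM at P0, 456 and 737 CPM at P4, 680 and 1072 CPM at P8, 489 and 1139 CPM at P14 and 320 and 558 CPM at P21. Atoh1, the defining gene of granule progenitors, was at 0 in all samples. At P14 replicate 2 stood apart, with a granule marker sum of 1139 CPM against 489 and 561 CPM, and the same sample had the highest level of Nfia, Nfib, Nfix, Tcf4, Sox12, Sox4 and Bcl11b at that age. In 4 of the 5 time points the sample with the most Nfib also had the highest granule marker sum, and in 3 of 5 this held for Nfia, Nfix and Tcf4. For the glial marker sum this held in 1 of 5 for Nfia, 2 of 5 for Nfib and 3 of 5 for Nfix and Tcf4. With 3 samples at each age, some such matches arise by chance. Deviations of log2 levels from the time point means were also correlated. With the granule sum r was 0.92 (Nfib), 0.79 (Tcf4), 0.68 (Nfia) and 0.66 (Nfix). The other factors had r between -0.57 (Bcl11a) and 0.25 (Sox12). With the glial sum r was 0.36 (Nfib), 0.019 (Tcf4), 0.34 (Nfia) and 0.36 (Nfix). With the low sum of 4 microglial markers r was 0.66 (Nfib), 0.55 (Tcf4), 0.54 (Nfia) and 0.59 (Nfix). The other factors then had r between -0.84 (Bcl11a) and -0.056 (Sox12). Replicate 2 of P14 also had the highest microglial sum of its age (25.3 CPM, against 6.63 and 9.02 CPM). Glial and granule cells are known to express NFI genes, and the part of these cells in the levels reported here was not tested. Without replicate 2 of P14 the slopes of Nfib and Tcf4 passed (-0.10, edgeR adjusted p = 0.0043, and -0.072, adjusted p = 0.0012). That sample was the highest of P14 for both genes, and leaving out a high late sample steepens a fall. The repeat is therefore no test of the part of granule cells.

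**Figure D5:**
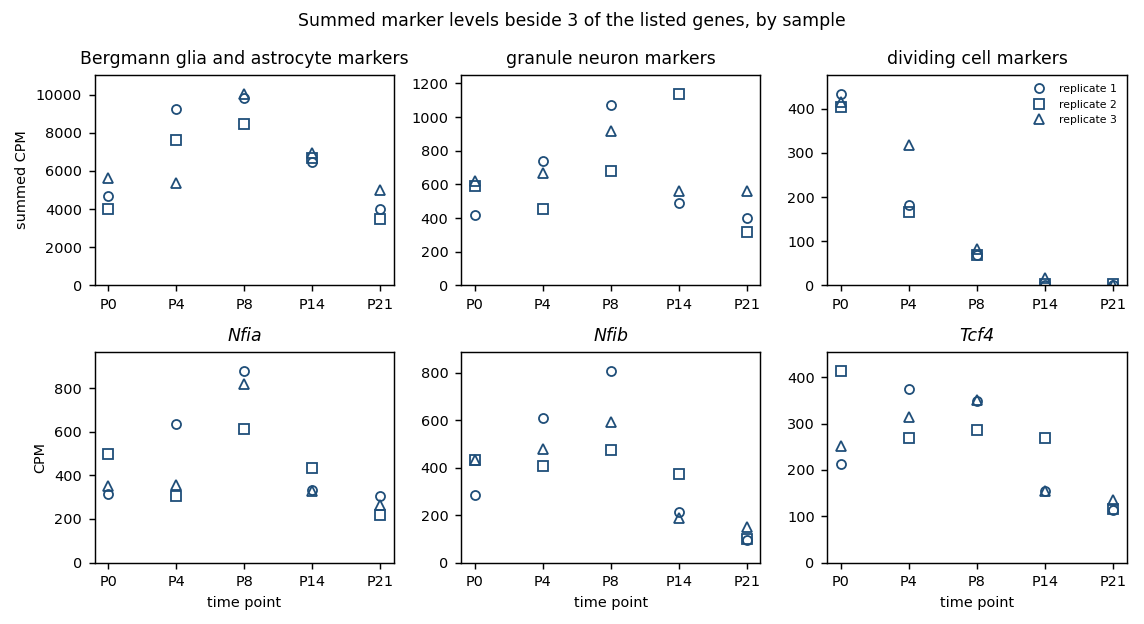
Summed CPM of the marker genes of Bergmann glia and astrocytes, granule neurons and dividing cells (top, y axis) and CPM of Nfia, Nfib and Tcf4 (bottom), by time point, with 1 symbol per replicate. Replicate 2 of P14 has the highest granule marker sum (1139 CPM) and, at P14, the highest Nfib (372 CPM) and Tcf4 (270 CPM).

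Other marker lists had lower sums than the glial one. Those of dividing cells summed to between 166 and 317 CPM at P4, 68.1 and 82.5 CPM at P8 and 0.920 and 15.9 CPM at P14. The mean of this sum fell from 417 CPM at P0 to 73.0 CPM at P8. Between these ages the means of Sox4 and Ebf3 also fell, from 69.4 to 16.6 CPM and from 279 to 60.1 CPM. That of Sox12 went from 94.4 to 74.8 CPM. Those of Nfib and Tcf4 went up instead, from 383 to 625 CPM and from 293 to 329 CPM, and were lower only from P14 on. Over the 15 samples, r of log2 levels with the dividing cell sum was 0.94 for Sox4, 0.83 for Ebf3, 0.78 for Sox12, 0.77 for Tcf4 and 0.74 for Nfib. Age enters these correlations. For deviations from the time point means, r was 0.32 (Ebf3), 0.14 (Sox4), -0.135 (Tcf4), -0.21 (Nfib) and -0.54 (Sox12). The part of dividing cells in the declines was not tested. Oligodendrocyte markers (5 of 9 rose) summed to between 35.2 and 44.4 CPM at P0 and between 407 and 872 CPM at P21. Interneuron markers (1 of 4 tested fell) stayed between 27.7 and 107 CPM, vascular markers (1 of 3 fell) between 16.0 and 121 CPM, and the 4 microglial markers, none of which passed in edgeR's test, between 0 and 25.5 CPM.

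Among 20 related transcription factors, 19 could be tested, of which 6 fell and 3 rose, with a median slope of -0.044 log2 units per day, where 14.1% of all genes fell and 12.1% rose. The steepest were Sox6 (-0.20, edgeR adjusted p = 0.0016) and the Id proteins Id3 (-0.19, adjusted p = 6.69e-06) and Id1 (-0.15, adjusted p = 0.00017), which block E proteins such as Tcf4 by pairing with them. Tcf3, Tcf12 and Ebf1 (-0.077, adjusted p = 1.13e-05) were the others that fell. Besides Nfic, the rising genes were Id2 (0.049, adjusted p = 0.00073) and Sox5 (0.072, adjusted p = 0.022), which were named after their values were seen. The 3 Id genes that passed did not share a direction.

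Of the 20 BAF subunits, all tested, 7 fell and 1 rose, with a median slope of -0.034, where 14.1% of all genes fell and 12.1% rose. The count that fell was 13 with plain library totals, under which 20.1% of all genes fell, and 4 without replicate 3 of P21. The steepest were Bcl7c (-0.14, edgeR adjusted p = 0.00081), Smarcd3 (-0.12, adjusted p = 0.030) and Actl6b (-0.11, adjusted p = 0.0012), while Bcl7b rose (0.096, adjusted p = 0.00089). Actl6b is the neuronal counterpart of the progenitor subunit Actl6a, which had a slope of -0.072 (adjusted p = 0.11). In the second such pair the neuronal Ss18l1 fell (-0.050, adjusted p = 0.0498) and the progenitor subunit Ss18 had a slope of -0.041 (adjusted p = 0.14). In the remaining group Phf10 (-0.049, adjusted p = 0.11), Dpf1 (-0.024, adjusted p = 0.45) and Dpf3 (0.028, adjusted p = 0.70) did not pass.

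All 14 genes of a list of immature neuron cytoskeleton and growth genes fell, where 14.1% of all genes tested fell. Their median slope was -0.20, beside -0.0077 for all genes tested. The list was chosen with earlier results of these data known. Their summed level ran from 12506 to 12598 CPM at P0 and from 2398 to 3234 CPM at P21. The steepest were Igfbpl1 (-0.43, edgeR adjusted p = 3.36e-05), Dcx (-0.43, adjusted p = 7e-07), which encodes the microtubule protein doublecortin, Cd24a (-0.37, adjusted p = 3.24e-07) and Dpysl3 (-0.34, adjusted p = 1.23e-07). Dcx went from 662 CPM at P0 to 0.573 CPM at P21. The slope of Sox4 (-0.23) lay within the range of this list, whose least negative slope was that of Stmn2 (-0.033, edgeR adjusted p = 0.00076, named after its values were seen), and the lists were not compared by a test.

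The genes whose log2 CPM ran most like each factor but Sox11 over the 15 samples, among 11280 genes whose best time point averaged 10 CPM or more, are given as a description. They were Set and Rps26 for Sox4 (r = 0.98 for both), Rdh13 and Gm7331 for Sox12 (r = 0.94 and 0.93), and Fgf15 and Dlk2 for Ebf3 (r = 0.93 for both). For Nfia they were Col2a1 and Kctd5 (r = 0.94 and 0.88), and for Nfix Lpar1 and Zbtb18 (r = 0.89 and 0.88). Nfib was closest to Elavl4 (r = 0.96) and then to Tcf4 (r = 0.95), and Tcf4 in turn to Nfib and then to BC064078 (r = 0.93). Bcl11a was closest to Golga1 and Cep89 (r = 0.90 and 0.84) and Bcl11b to Lmcd1 (r = 0.84). Samples of 1 time point share their age, which enters every one of these correlations.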

How the data were processed

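RNA of laser-captured PCs was made into SMARTer cDNA libraries, 1 per sample. The authors trimmed the reads with cutadapt 1.2.1, aligned them to GRCm38 with GSNAP and counted uniquely mapping reads per gene with HTSeq 0.5.3p9 in intersection-strict mode. The deposited values are these raw counts. Reads outside annotated features were left out. Their share ran with age, from between 24.1% and 29.8% at P0 to between 17.2% and 19.1% at P21, and its part in the age trends was not tested. Groups and replicate numbers came from the sample labels.

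Counts were tested with edgeR 4.0.16 in R 4.3.3 (quasi-likelihood F test, TMM, filterByExpr by time point, Benjamini-Hochberg at 0.05), with postnatal day as a number, with time point as a factor, and between neighbouring time points. DESeq2 1.42.0 and limma 3.58.1 served as alternatives. The tests were checked on simulated counts. Family shares and ratios used counts per kilobase of GENCODE M21 exons, ratios with 0.5 counts added. Ratios were tested with 100000 two-sided permutations, for which 1e-05 is the smallest possible p before adjustment over the 10 ratios. Where the 2 samples most distant in age were dropped, these were replicates 1 and 2 of P21. Promoter sequences were those of RefSeq. The members and lists were chosen with earlier results of these data known. Beside the 10 factors, the genes named were the passing genes with the largest slope in each list (at most 4), the paired BAF subunits, the 2 genes most like each factor (none for Sox11, whose reads were too few) and markers. A gene that this rule selects is not reported here. Within time points, replicates differed by more than sampling noise (chi-square per degree of freedom 18.4 to 56.5).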

Additional observations from a re-analysis of the deposited data

How the results depend on the processing

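The slopes of the 9 factors tested and the listed ratios kept their direction wherever they had passed. Sox4, Sox12 and Ebf3 passed under every alternative tried, and Nfib and Tcf4 under every one except log2(day + 1), which left 3 factors that fell. DESeq2 called more genes than edgeR: 4224 between time points (9 of the factors), 266 down and 621 up from P0 to P4, 204 and 349 from P4 to P8, 498 and 421 from P8 to P14, and 136 and 56 from P14 to P21, with 2, 0, 3 and 1 factors lower in these steps. From P0 to P4, 1 factor was lower with RLE size factors and 1 with no filter on low counts, and without that filter 14 genes rose from P14 to P21. Leaving out each sample in turn, the genes that fell numbered between 19 and 65 from P0 to P4, 9 and 42 from P4 to P8, 74 and 207 from P8 to P14, and 21 and 59 from P14 to P21. Those that rose numbered between 65 and 159 from P4 to P8, 89 and 236 from P8 to P14, and 2 and 11 from P14 to P21. The factors that fell then numbered between 0 and 2 from P0 to P4 and between 0 and 3 from P8 to P14, and those that rose from P4 to P8 between 0 and 1. The ratio of Ebf1 to Ebf3 had r between 0.59 and 0.72 and that of Sox11 to Sox4, which counts of 0 make void as a trend, between 0.48 and 0.66. Without the P0 samples the first of these had r = 0.34 (adjusted p = 0.39). Replicate numbers did not pair the samples, since none of 30 same-numbered pairs of samples had deviations correlated above 0.1 (mean r = -0.0034). With a replicate block, 22 genes fell from P4 to P8 and 1 factor, Sox4, fell from P8 to P14 (Nfia, adjusted p = 0.061, and Nfib, adjusted p = 0.0501, were lost), 1911 genes fell and 1723 rose with day, of which 1847 and 1638 had done so without it, and no other call on a factor changed. The cause of these differences was not tested. Levels of Sox11, of Bcl11b and of Sox4 after P8 are limited by depth.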
